A study of Danio rerio with 18 samples.

Results

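The genes described here encode the intermediate and light chains of the axonemal dynein arms and the complex that docks the outer arm on its microtubule. They were measured in pronephric ducts taken from zebrafish embryos 30 hours after fertilisation. The genes were taken by symbol from a list of 10: dnai1.2, dnai2a, dnai2b, dnai3, dnai4, dnal1, dnali1, odad1, odad3 and ccdc103. Of these, 8 were matched to a row of the deposited tables through RefSeq accessions, each to a single accession, out of 18356 named genes. The genes dnai3 and ccdc103 were not analysed here. The test across all accessions included 7 of the 8, since dnai2a was too sparsely counted to pass the filter on low counts.

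The actl6a group was 8 libraries of pronephric duct from embryos injected with a morpholino, an antisense oligonucleotide, that blocks translation of actl6a, labelled as actl6a knockdown. The control group was 10 libraries from embryos labelled as wild type (WT) and injected with a standard control morpholino. All embryos carried the same transgene, in which the Na,K-ATPase alpha1A4 promoter drives GFP in the pronephros, and all were injected at the 1-cell stage. Duct fragments were picked by eye from enzyme-treated embryos for their GFP, so a library can hold attached cells of other tissues. The labels do not say how many embryos a library holds or whether libraries of a group came from separate injections. P-values therefore measure the spread between libraries, which may be technical. The question put by the design is how loss of actl6a, which encodes a SWI/SNF chromatin remodeller subunit, bears on duct development and on the stability of cilia.

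Motile cilia beat through rows of dynein arms on the axoneme, the microtubule core of the cilium. Outer arms set the force and frequency of the beat and inner arms shape its waveform. In each arm, heavy chains carry the motor, while intermediate and light chains hold the arm together and attach or tune it. Outer arms sit on a docking complex of coiled-coil proteins. In the zebrafish pronephros, multiciliated cells and single-ciliated duct cells with such arms move fluid along the tubule, and loss of outer arm or docking proteins is a known cause of immotile cilia and pronephric cysts.

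Library totals ran from 1731521 to 3393310 counts in the actl6a libraries and from 1564673 to 3301873 counts in the controls. The targeted transcript, actl6a (NM_173240.1), averaged 138.6 ± 12.4 CPM (the count scaled by the library total, adjusted by TMM factors) in actl6a libraries and 109.5 ± 15.7 CPM in controls (SD, n = 8 and 10), with an adjusted p of 0.0137. Its morpholino acts on translation, so this level does not measure the protein. The groups were deposited in separate count tables, so a difference between preparations or runs and one between groups cannot be told apart. Transcript lengths of the build used were not at hand, so levels are compared between libraries and not between genes. No reference coordinates or sequences of the genes are given for the same reason.

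Of the 7 tested genes, 3 were lower in actl6a libraries and 0 were higher at an adjusted p under 0.05 (edgeR's quasi-likelihood test, Benjamini-Hochberg adjustment). Those 3 were the inner arm intermediate chain dnai4, the inner arm light chain dnali1 and the docking gene odad1. Over all 14462 accessions tested, 8.52% were called lower, 7.9% higher and 16.4% in either direction. At an unadjusted p under 0.05, 5 of the 7 were lower, where 15.5% of accessions were lower and 31.2% passed in either direction. The 7 log2 fold changes, actl6a over control, had a median of −0.32, against 0.011 for all tested accessions. They ran from −0.84 to 0.21, and 6 of the 7 were negative. Ducts are bulk tissue, so fewer ciliated cells and less transcript per cell cannot be told apart.

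**Figure D1:**
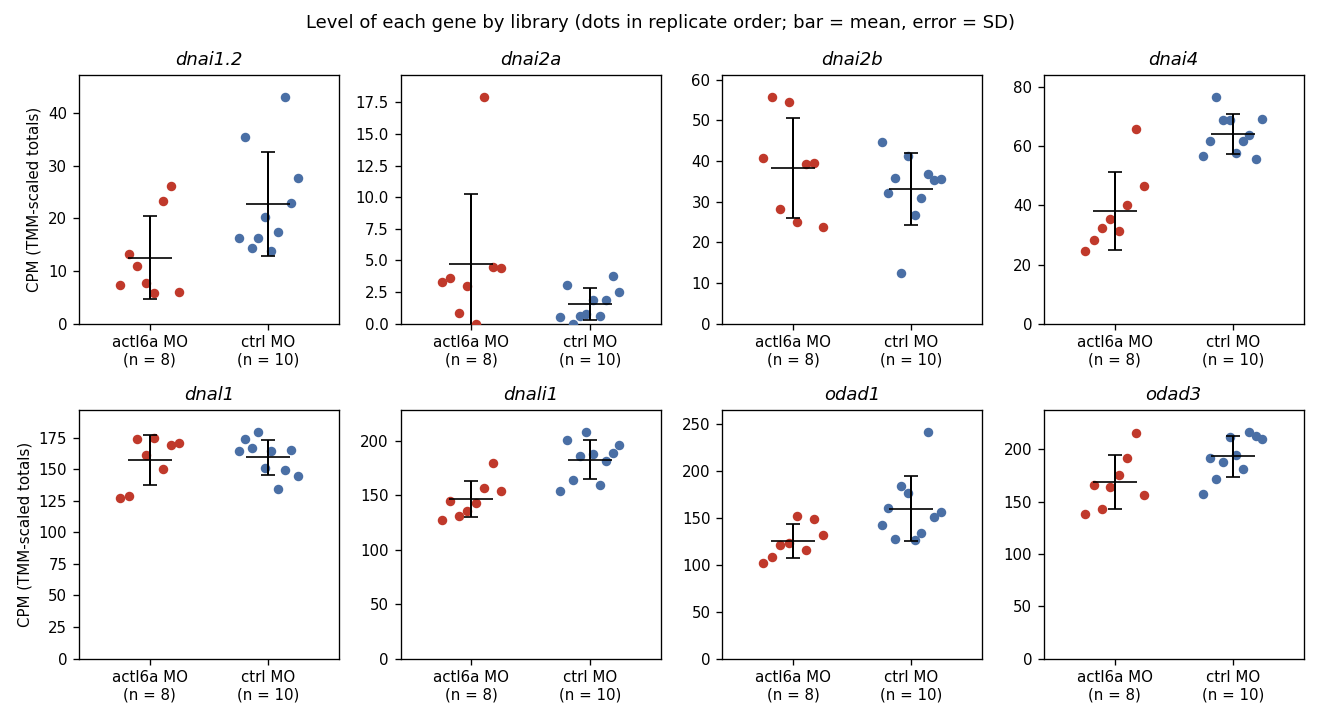
Each panel plots the level of 1 gene in CPM on TMM-scaled library totals (y axis) in the 8 actl6a morpholino libraries (left) and the 10 control morpholino libraries (right), with the mean and SD. The dots of dnai4 separate except for actl6a replicate 7 at 65.95 CPM, those of dnali1 and odad1 are shifted down with overlap, and those of dnal1 and dnai2b overlap over most of their range.

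Neither tested gene of the outer arm intermediate chains passed the test. The gene dnai1.2 (NM_001080558.1) encodes the chain that pairs with the dnai2 product at the base of the outer arm. It was sparsely counted, at 9 to 87 counts per actl6a library and 25 to 116 per control library. Its lowest, median and highest levels were 5.76, 9.32 and 26.1 CPM in actl6a libraries and 13.7, 18.8 and 42.9 CPM in controls. Of the 8 actl6a libraries, 6 lay below every control, while replicates 6 and 7, at 23.2 and 26.1 CPM, were above the control median. On the log2 scale the difference was −0.84 ± 0.342 (SE), which did not pass the test (p = 0.0230 unadjusted, adjusted p = 0.0980). It passed without actl6a replicate 6, at −1.03 (adjusted p = 0.0497), and without actl6a replicate 7, at −1.08 (adjusted p = 0.0357). These were its highest actl6a libraries, so leaving either out favours a pass. The gene passed in 2 of the 18 fits that left out 1 library and in 0 of the 11 other settings.

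The partner chain is encoded by a pair of paralogs, dnai2a (NM_001110465.1) and dnai2b (XM_005156402.4). The level of dnai2b had a minimum of 23.8, a median of 39.5 and a maximum of 55.7 CPM in actl6a libraries, against 12.4, 35.5 and 44.6 CPM in controls. The groups overlapped over most of this range, and 5 actl6a libraries exceeded the control median. The log2 fold change, 0.21 ± 0.220 (SE), had a 95% interval from −0.25 to 0.68 (adjusted p = 0.551). The interval leaves room for a fall to 0.838 of the control level or a rise to 1.598 times it. The value in control replicate 4, 12.4 CPM, was the lowest of all 18 libraries. Without that library the log2 fold change was 0.12, without actl6a replicate 2 it was 0.11 and without actl6a replicate 4 it was 0.12, so single libraries moved it by more than 1.5 times.

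Counts of dnai2a were few, 116 over the 8 actl6a libraries and 45 over the 10 controls. It had 0 to 64 counts per actl6a library and 0 to 10 per control library. Levels were 0, 3.47 and 17.9 CPM (lowest, median and highest) in actl6a libraries and 0, 1.30 and 3.81 CPM in controls. The high value stood in actl6a replicate 6 alone, and the next highest actl6a library had 4.50 CPM. It was at 0 in actl6a replicate 5 and in control replicate 3, which sets no more than an upper limit of 3 counts, for counting error alone. Fitted without a filter, where 5.99% of 32820 accessions were called, dnai2a differed by 1.54 ± 0.705 (SE) on the log2 scale (adjusted p = 0.184). How the counting treated reads that match both paralogs is not stated, so the split of counts between them is uncertain.

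The log2 ratio of dnai2b over dnai2a within a library averaged 3.65 ± 1.55 in actl6a libraries and 4.64 ± 1.51 in controls (SD, n = 8 and 10). The difference of −0.99 did not pass (two-sided exact permutation p = 0.193, or 0.207 when adjusted over the planned pairs).

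The outer arm light chain gene dnal1 (NM_001003442.1), whose product binds a heavy chain and the microtubule, was among the better counted genes, at 274 to 565 counts per actl6a library and 276 to 594 per control library. Its levels were 127.1, 165.2 and 175.3 CPM in actl6a libraries and 134.7, 164.6 and 179.5 CPM in controls (lowest, median, highest). The medians nearly coincided, and 4 actl6a libraries lay on each side of the control median. The log2 fold change was −0.02 ± 0.081 (SE; adjusted p = 0.891). Its 95% interval ran from −0.19 to 0.15, or 0.875 to 1.11 times the control level, so a fall as large as that estimated for dnali1 or dnai4 lies outside it. That interval belongs to the fit with all controls. Against control replicates 1 to 4 alone the log2 fold change was −0.13 ± 0.105 (SE), and no interval was computed. The 2 lowest actl6a libraries, replicates 1 and 2 at 127.1 and 129.0 CPM, were below every control.

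The docking complex is represented by odad1 and odad3, coiled-coil proteins on which the outer arm is anchored. Levels of odad1 (NM_001007408.1) were 102.2, 122.0 and 151.6 CPM in actl6a libraries and 126.3, 153.7 and 241.2 CPM in controls (lowest, median, highest). All 8 actl6a libraries were below the control median and 5 were below every control. The gene fell to 78.3% of the control level, by −0.35 ± 0.119 (SE) on the log2 scale (adjusted p = 0.0481). Control replicate 8, at 241.2 CPM, stood well above the other controls, and without it the value was −0.27 (adjusted p = 0.0738). When libraries were left out singly, the call was kept in 6 of 18 fits, with adjusted p from 0.0264 to 0.0940.

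Levels of odad3 (NM_001077369.2) were 138.4, 164.9 and 216.1 CPM in actl6a libraries and 157.0, 193.3 and 216.5 CPM in controls. Against the control median 7 actl6a libraries were lower, and 3 were below every control. Its log2 fold change, −0.20 ± 0.0896 (SE), did not pass (p = 0.0412 unadjusted, adjusted p = 0.142). It passed without actl6a replicate 7, its highest actl6a library, at −0.25 (adjusted p = 0.0425). That was 1 of the 18 fits that left out 1 library, and odad3 passed in 0 of the 11 other settings. Between the docking genes, the log2 ratio of odad1 over odad3 averaged −0.43 ± 0.190 in actl6a libraries and −0.30 ± 0.236 in controls (SD, n = 8 and 10). Nor did that difference of −0.14 pass (two-sided exact permutation p = 0.207, or 0.207 when adjusted over the planned pairs). Another docking gene on the wider list, odad4, was lower at −0.42 ± 0.102 (SE; adjusted p = 0.00832).

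On the inner arm side, the clearest fall was that of dnai4 (NM_001020759.1), the intermediate chain known as WDR78 in mammals. Its counts ran from 49 to 220 in actl6a libraries and from 106 to 272 in controls. Levels were 24.6, 33.8 and 65.95 CPM in actl6a libraries and 55.6, 62.8 and 76.5 CPM in controls (lowest, median, highest). Of the 8 actl6a libraries, 7 lay below every control, and replicate 7 lay within the control range. The level was 59.5% of that in controls, or −0.75 ± 0.161 (SE) on the log2 scale (adjusted p = 0.00422). The spread was also unequal, with a coefficient of variation of 34.7% in actl6a libraries and 10.5% in controls.

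The light chain gene dnali1 (NM_001110114.2) encodes the relative of the inner arm p28 protein of Chlamydomonas. It had 127.4, 143.7 and 179.6 CPM in actl6a libraries and 154.0, 186.4 and 207.6 CPM in controls (lowest, median, highest). All 8 actl6a libraries were below the control median and 6 were below every control. Its level was 80.2% of that in controls, or −0.32 ± 0.0794 (SE) on the log2 scale (adjusted p = 0.0108). For none of the 7 tested genes did all 8 actl6a libraries lie below all 10 controls, which held for 0.837% of all tested accessions, and the opposite order, which 0 of the 7 showed, held for 0.933%. The calls of dnai4 and dnali1 were kept in all 18 fits that left out 1 library.

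**Figure D2:**
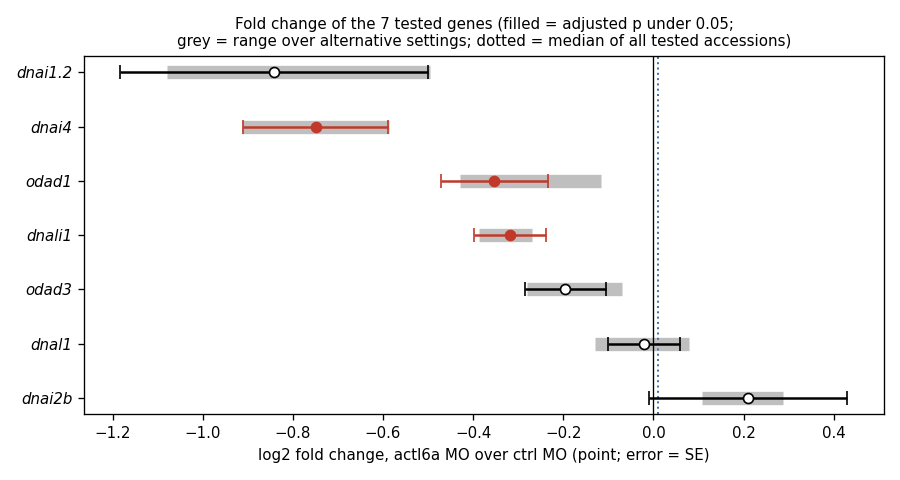
Points give the log2 fold change of each tested gene, actl6a over control morpholino (x axis), with its SE, filled where the adjusted p was under 0.05; grey bars span the values under the alternative settings and the dotted line marks the median of all tested accessions. Values run from −0.84 for dnai1.2 to 0.21 for dnai2b, and dnal1 sits at −0.02 with alternatives on both sides of 0.

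Of the markers of other tissues, 5 of 6 tested accessions of yolk and liver, 3 of 7 of neural tissue and 2 of 13 of epidermis were called higher in actl6a libraries, and 0 of 12 of skeletal muscle and 0 of 11 of blood were called. Over all tested accessions 7.9% were called higher and 16.4% in either direction. Summed levels of 13 yolk and liver markers with a row ran from 235.2 to 412.2 CPM in actl6a libraries and from 11.7 to 245.6 CPM in controls, with 7 actl6a libraries above every control. For 15 epidermis markers the ranges were 813.6 to 6200 CPM in actl6a libraries and 875.8 to 2444 CPM in controls. Blood markers, 13 with a row, summed to 312.7 to 4019 CPM in actl6a libraries and 146.2 to 1612 CPM in controls. The overlap came from control replicates 3 and 6, at 1330 and 1612 CPM. The next highest control, replicate 4 at 245.8 CPM, was lower than any actl6a library. Each of the 8 actl6a sums thus exceeded the median control sum, though only replicate 1 exceeded every control. The median log2 fold change of the 11 tested blood accessions was 1.145, with 0 called. Neural markers, 12 with a row, summed to 238.0 to 934.8 CPM in actl6a libraries and 225.7 to 357.2 CPM in controls. Only actl6a replicates 1 and 2, at 655.7 and 934.8 CPM, were above every control, and 4 actl6a libraries were below the control median. Skeletal muscle markers, 14 with a row, ran from 382.0 to 10410 CPM in actl6a libraries and from 66.99 to 8761 CPM in controls. Defining markers with no row matched included elavl3 and gfap of neural tissue, epcam of epidermis, mpx of blood, vtg1 of the yolk and liver list and myog of muscle.

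Among these markers sox3, a neural progenitor gene, rose by 3.47 ± 0.639 (SE) on the log2 scale and tfa, the transferrin gene of liver, by 2.62 ± 0.568. Of the epidermis markers, cldni rose by 1.82 ± 0.488 (adjusted p = 0.0160) and the keratin gene cyt1 by 1.72 ± 0.566 (adjusted p = 0.0434). The call of cyt1 was lost in 21 alternative settings and kept in 8, and that of cldni was lost in 6 and kept in 23. With the scores of muscle, blood, epidermis and neural markers as covariates, 3.1% of accessions were called and 0 of the 7 genes were. There the log2 fold change of dnai4 was −0.59 (adjusted p = 0.143), that of dnali1 −0.28 (0.190) and that of odad1 −0.12 (0.676). With the duct marker score as covariate all 3 calls were kept, with dnai4 at −0.81, dnali1 at −0.34 and odad1 at −0.40. The yolk and liver markers, of which 5 of 6 tested accessions were called higher, were not among the covariates. Beyond these fits the part of carried-over tissue was not tested. The barcode numbers of control replicates 1 to 4 come after those of replicates 5 to 10, and the sample titles name no batch. With control replicates 1 to 4 alone, and so with fewer controls, 3.28% of accessions and 0 of the genes were called. These were 9.59% and 2 with control replicates 5 to 10 alone, and 7.59% and 1 with replicate numbers as a block. Against control replicates 1 to 4 the log2 fold changes were −0.80 ± 0.240 for dnai4, −0.27 ± 0.110 for dnali1 and −0.30 ± 0.124 for odad1 (SE). Against all controls they were −0.75 ± 0.161, −0.32 ± 0.0794 and −0.35 ± 0.119. For the genes not called, the values against control replicates 1 to 4 were −0.70 for dnai1.2, 0.29 for dnai2b, −0.13 for dnal1 and −0.07 for odad3. With all controls these were −0.84, 0.21, −0.02 and −0.20.

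Markers of the labelled tissue were abundant in both groups. The 17 pronephric duct markers with a row summed to 3969 to 5560 CPM in actl6a libraries and 4547 to 6671 CPM in controls, with a median log2 fold change of −0.08 and 0 of 15 tested accessions called. Among the duct markers pax2a, pax8, slc4a4a, slc4a2a and clcnk had no row matched. Floor plate, another tissue with motile cilia at this age, gave summed marker levels of 46.6 to 190.3 CPM in actl6a libraries and 16.9 to 182.9 CPM in controls, with ntn1b unmatched. Of its 3 tested accessions 0 were called. Hair cell and olfactory markers summed to 225.1 to 712.6 CPM in actl6a libraries and 97.6 to 263.8 CPM in controls, of which pvalb9 alone averaged 366.2 CPM in actl6a libraries and 175.5 CPM in controls, while cnga4 was lower at 5.68 CPM in actl6a libraries and 15.8 CPM in controls. Notochord markers summed to 298.8 to 498.0 CPM in actl6a libraries and 297.7 to 725.2 CPM in controls.

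Libraries of the actl6a group differed among themselves. The summed level of the 8 genes with a row was 571.0 CPM in actl6a replicate 1, the lowest of the 18 libraries, and 849.6 CPM in actl6a replicate 7, against 719.3 to 933.3 CPM in controls. Replicate 7 was the highest actl6a library for dnai1.2, dnai4, dnali1 and odad3 and close to the highest for odad1, at 148.4 CPM against 151.6 CPM in replicate 5. Replicate 1 was the lowest for dnai4, dnal1, dnali1, odad1 and odad3. Muscle and blood markers were at their highest in replicate 1, at 10410 and 4019 CPM, and replicate 7 had 756.1 and 383.7 CPM of them. Replicate 3 had 743.9 CPM of muscle markers and 641.2 CPM for the 8 genes. In replicate 4 these sums were 7870 and 684.6 CPM. Beyond the fits with marker scores as covariates, the part of muscle and blood tissue in these levels was not tested.

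**Figure D3:**
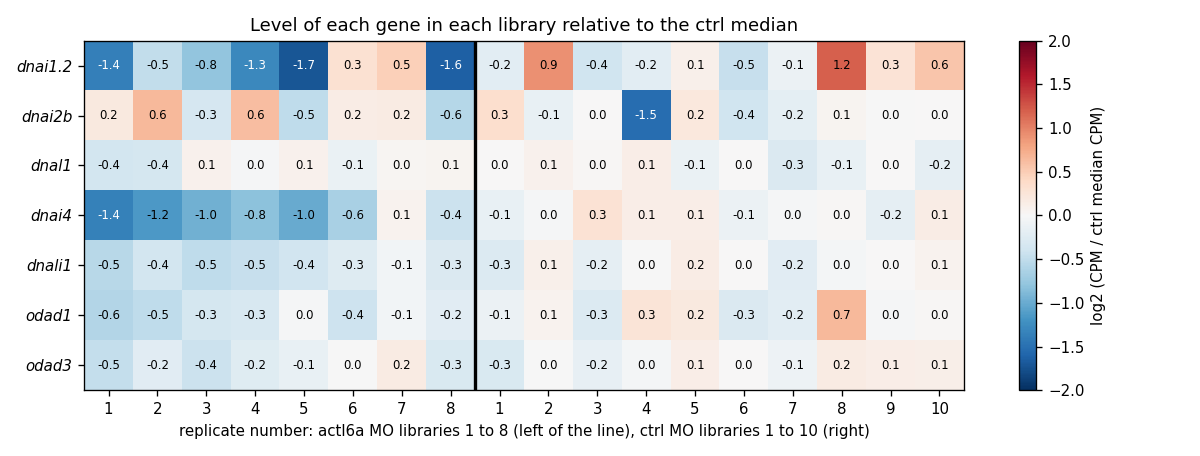
Rows are 7 genes and columns are libraries, the 8 actl6a morpholino replicates left of the line and the 10 control replicates right of it; colour and number give log2 of the CPM over the control median of that gene. In dnai4 the actl6a replicates 1 to 6 and 8 are blue and replicate 7 is near 0, dnai1.2 varies most, and dnal1 is pale throughout.

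With the group means removed, levels of the 7 genes were compared between libraries over all 18. Pearson correlations of the 21 pairs ran from −0.53 to 0.84 with a median of 0.36, as a description over libraries that share depth and carried-over tissue. The highest was that of dnali1 and odad3 (0.84), followed by dnai1.2 and odad3 (0.66) and by dnai4 and dnali1 (0.61). The lowest was that of dnai2b and dnal1. The gene dnai2b correlated at 0.31 or less with each of the other 6.

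Ratios between genes within a library do not depend on how libraries are scaled. All 28 pairs of the 8 genes were compared between the groups, a comparison chosen after the levels had been seen. Of these, 12 differed at an adjusted p under 0.05 over the 28. The pairs share genes, so the 12 are not separate results, and the share among pairs of other genes was not measured. The gene dnai4 was lower relative to dnal1 by 0.78 on the log2 scale, at −2.10 ± 0.372 in actl6a libraries and −1.32 ± 0.202 in controls (SD, n = 8 and 10). All 8 actl6a libraries were below the control median of that ratio and 7 were below every control (two-sided exact permutation p = 1.37e-04, adjusted 0.00384). Relative to odad3 the difference for dnai4 was −0.60 (adjusted exact p = 0.00480), relative to dnali1 −0.49 (0.00944) and relative to odad1 −0.47 (0.0305). The fall of dnai4 was thus larger than the difference in each of these 4 genes, including the called dnali1 and odad1.

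The light chain dnal1 was also higher relative to dnali1 and odad1. Its log2 ratio to dnali1 averaged 0.10 ± 0.207 in actl6a libraries and −0.19 ± 0.181 in controls, 0.29 higher (adjusted exact p = 0.0242). Its ratio to odad1 differed by 0.31 (adjusted exact p = 0.0338). The ratio of dnal1 over odad3 differed by 0.18, which did not pass (adjusted exact p = 0.154). Between dnali1 and odad1 the ratio was nearly even, at 0.23 ± 0.173 in actl6a libraries and 0.21 ± 0.265 in controls (SD, n = 8 and 10; two-sided exact permutation p = 0.873).

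Among the intermediate chains of the outer arm, dnai1.2 was lower relative to dnai2b. The log2 ratio of dnai1.2 over dnai2b was −1.75 ± 0.779 in actl6a libraries and −0.58 ± 0.652 in controls (SD, n = 8 and 10), a difference of −1.17. It held against the control median in 7 of 8 actl6a libraries (adjusted exact p = 0.0182). The ratio of dnai2b over dnai4 was higher by 1.02 in actl6a libraries (adjusted exact p = 0.00944). Ratios to dnai2a rest on its few counts: dnai1.2 over dnai2a differed by −2.16 and dnai2a over dnai4 by 2.01 (adjusted exact p = 0.0145 and 0.0375), and with 0.1 in place of 0.5 added to each count the unadjusted p of the second was 0.0640.

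**Figure D4:**
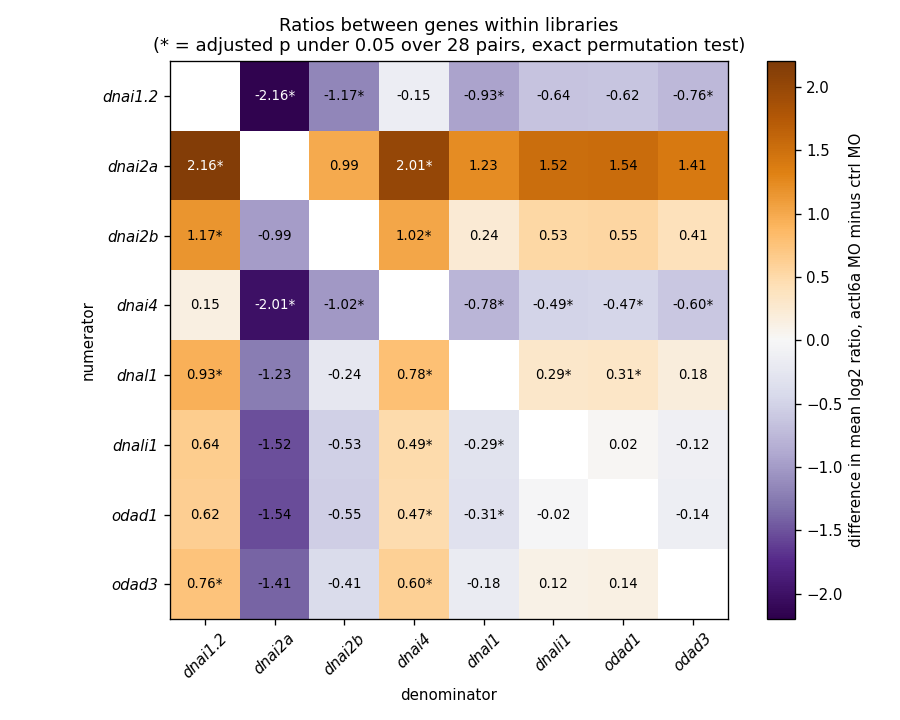
Each cell gives the difference between groups, actl6a minus control morpholino, in the mean log2 ratio of the row gene over the column gene within a library, with a star where the adjusted p over the 28 pairs was under 0.05. The row of dnai4 is negative against every gene except dnai1.2, and the row of dnai2a, which had the fewest counts, is positive throughout.

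The genes were then set against 3 gene lists within each library, 24 ratios in all, also chosen after the levels had been seen. Against the summed counts of the multiciliated cell markers, which do not hold the 8 genes, dnali1 and odad1 differed by 0.0090 and −0.010 on the log2 scale between groups (two-sided exact permutation p = 0.868 and 0.938). The summed level of these markers was itself lower, at 2217 to 2655 CPM in actl6a libraries and 2660 to 3368 CPM in controls. All 8 actl6a libraries lay below all controls. Of 23 tested accessions 7 were called lower, where 8.52% of all tested accessions were, with a median log2 fold change of −0.30. The list holds genes of the axoneme itself, such as tekt1, rsph9 and hydin, so its sum does not measure cell number alone. Its symbols efhc2, spa17, iqcg, ccdc39, ccdc65 and gas8 had no row matched by name. A row that stands under another name of these genes, as drc4 may for gas8, is not in the sum. Relative to the summed markers dnai4 was lower by 0.48 and dnal1 higher by 0.30 (adjusted exact p = 0.0115 and 0.0163). Against the duct markers dnai4 was the 1 gene past the threshold, with a difference of −0.70 (adjusted exact p = 0.00494).

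Of 15 symbols of axonemal dynein heavy chains, 8 had a row matched, and dnah6, dnah8, dnah9, dnah9l, dnah11, dnah14 and dnah17 did not. All 7 tested accessions were called lower, where 8.52% of all tested accessions were, with a median log2 fold change of −0.74, among them dnah5 of the outer arm at −1.20 and the inner arm genes dnah7 at −1.09 and dnah12 at −0.64. Their summed level was 235.9 to 414.4 CPM in actl6a libraries and 406.9 to 650.8 CPM in controls. Relative to this sum, dnal1 was higher by 0.66, dnai2b by 0.90 and odad3 by 0.48 in actl6a libraries (adjusted exact p = 0.00329, 0.00969 and 0.0115). The ratios of dnali1 and odad1 to it were higher by 0.37 and 0.35 and just missed the threshold (adjusted exact p = 0.0576 and 0.0581). The ratio of dnai4 to the heavy chains differed by −0.12 (two-sided exact permutation p = 0.393).

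**Figure D5:**
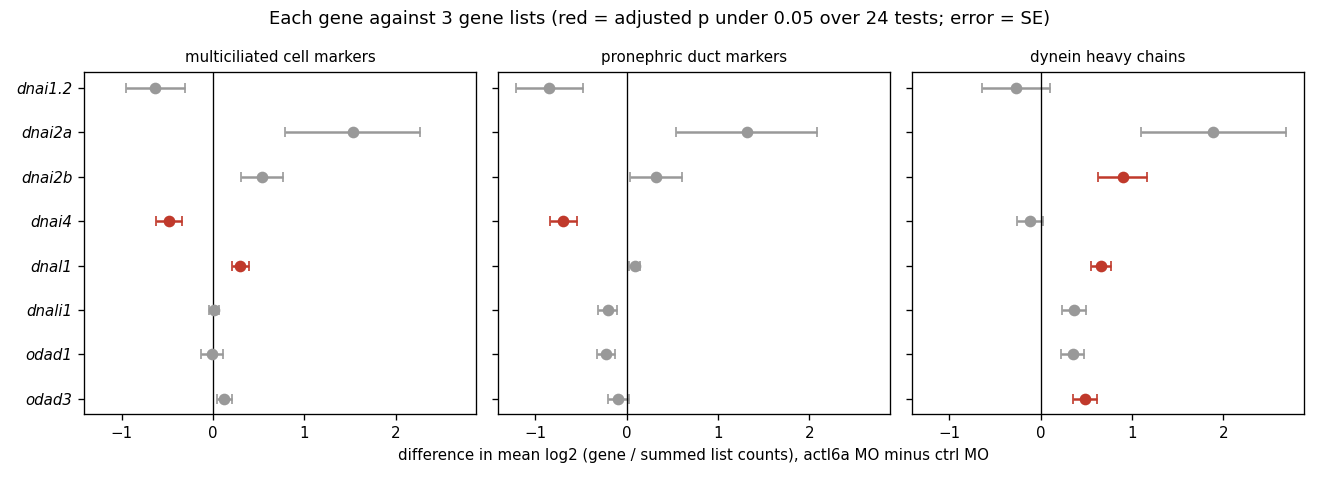
Points give, for each gene (rows), the difference between groups, actl6a minus control morpholino, in the mean log2 ratio of its counts over the summed counts of a gene list, with the SE of that difference; red points had an adjusted p under 0.05 over the 24 ratios. Against the multiciliated cell markers dnali1 and odad1 lie near 0, dnai1.2 and dnai4 to the left and the other genes to the right. Of these dnai4 and dnal1 are red. Against the heavy chains every gene except dnai1.2 and dnai4 lies to the right, with dnal1, dnai2b and odad3 red. The point of dnai2a, which had the fewest counts, lies furthest right in every panel and is not red.

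The rest of the dynein pathway was counted from lists. Of 10 tested accessions of other arm and docking genes, 6 were lower and 0 higher, with a median log2 fold change of −0.29. They included odad4, pierce1, a protein of the microtubule lumen by the docking complex, at −0.37 ± 0.0966 (SE, adjusted p 0.0136), and the light chain gene dynlrb2 at −0.41 ± 0.119 (SE, adjusted p 0.0251). Of 16 tested accessions of dynein preassembly factors, cytoplasmic proteins that fold and join the chains before transport, 4 were lower and 0 higher, with a median of −0.24. They included dnaaf6 at −0.26, dnaaf4 at −0.29 and spag1b at −0.36. On the arm and docking list, dnai1, dnai1.1, dynlt2, nme8, odad2, clxna, clxnb, ccdc63, ccdc183, pierce2 and daw1 had no row matched. The preassembly symbols dnaaf3, dnaaf5, dnaaf8 and lrrc56 had none either. Of 15 tested accessions of cytoplasmic dynein and its cofactors, the motors of transport in the cell body and within cilia, 0 were called and the median was −0.06. On that list dync1i1, dync1li1, dync2h1, dync2i1, dynlt2b, dynll1, dynlt1a and ndel1a had no row matched, so these motors were measured only in part. Of 7 tested accessions of motile cilia regulators, which include foxj1a, 0 were called and the median was −0.12; foxj1b, rfx2, mcidas and ccno had no row matched. With the heavy chains added, these lists gave 17 calls, all lower, among 55 tested accessions, where 8.52% of all tested accessions were called lower.

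The 5 accessions whose levels followed those of the 7 genes most closely once group means were removed were drc4, cfap184, cfap126, drc8 and dynlt5, out of 8901 with a mean of at least 20 CPM. Likeness was the Pearson correlation over the 18 libraries with the mean standardised level of the 7 genes, and it was 0.84 for drc4 and 0.77 for dynlt5. Of the 5, cfap126 (−0.42, adjusted p 0.00611), drc8 (−0.46, adjusted p 0.00267) and drc4 (−0.28, adjusted p 0.0248) were lower in actl6a libraries. The log2 fold changes of cfap184 (−0.64, adjusted p 0.0696) and dynlt5 (−0.16, adjusted p 0.115) did not pass. The gene dynlt5 is also on the list of other arm and docking genes counted above.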

How the data were processed

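Sequencing libraries were KAPA Hyper Prep libraries, per the labels' protocols. The deposited values are whole-number counts per RefSeq accession, 1 table per group, not normalised by the authors as far as the values show. The submitters' processing notes name cutadapt, FastQC, STAR, featureCounts, edgeR and build GRCz11; their versions and settings are not given in the sources used here. Of 32820 accessions in either table, 28575 were in both, with 0 filled in where a table lacked one. Symbols came from a RefSeq table of another build (GRCz12tu), used for names alone: 10586 accessions matched with their version and 9629 more without it.

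Libraries were compared in R 4.3.3 with edgeR 4.0.16: filterByExpr (minimum count 10), TMM factors and a quasi-likelihood fit on group alone over 14462 accessions, tested two-sidedly with Benjamini-Hochberg adjustment (threshold 0.05). The SE is the absolute log2 fold change over the square root of F; 95% intervals use 16 degrees of freedom. CPM values use TMM-scaled totals. Log2 ratios had 0.5 added to each count and were tested with two-sided exact permutation over 43758 choices of libraries, adjusted by Benjamini-Hochberg; the smallest possible p is 2.3e-05. The planned ratio of dnai3 over dnai4 was not analysed here, so 2 of 3 planned pairs were adjusted together. Alternatives used library totals without TMM, DESeq2 1.42.0, limma 3.58.1 (voom with sample weights), other filters, summed accessions, marker scores as covariates, a replicate block, control subsets and each library left out. The fits and the permutation test were tested on simulated data. Genes named beyond the 8 were up to 3 called members of lowest p per dynein list, up to 2 per marker list, actl6a and the 5 of highest likeness; the text gives those that bear on the 8. The genes, lists and rules were chosen with earlier results of these data known. Floors of 3 counts cover counting error alone.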

Additional observations from a re-analysis of the deposited data

Results flagged for a closer look

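A single library stood apart from its group in 2 of the 16 combinations of gene and group, by the gap to its neighbour over the range of the group. For normally spread values chance alone marks about 1 in 20 such groups. That rate need not hold for sparse, skewed counts such as those of dnai2a. For dnai2a, actl6a replicate 6 had 17.9 CPM and the next highest actl6a library had 4.50 CPM. For odad1, control replicate 8 had 241.2 CPM and the next highest control had 183.4 CPM. No other measure of the 8 genes was picked out.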

How the results depend on the processing

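The count of genes called, 3 of the 7, ran from 2 to 5 over the fits that left out 1 library, with 5 without actl6a replicate 7, where dnai1.2 and odad3 passed as well. It was 0 with the marker scores of 4 other tissues as covariates, 0 with control replicates 1 to 4 alone and 1, that of dnai4, with the replicate block. Accessions called in all numbered 449, 511 and 1058 in these settings and 1419 with control replicates 5 to 10 alone, against 2375, and 1876 to 2417 with 1 library left out. Calls over the dynein pathway lists numbered 2, 4 and 7 in the same settings and 9 with control replicates 5 to 10 alone, against 17, and 10 to 19 with 1 library left out. Deviations of same-numbered libraries of the groups correlated at −0.119 to 0.324. The labels do not say whether a number marks a shared clutch or injection. In libraries that differ in carried-over tissue these correlations cannot decide it. The causes of these changes in the calls were not tested.

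The sign of the dnal1 value, near 0, turned to 0.079 with tissue covariates, 0.044 with control replicates 5 to 10 alone, and ran from −0.053 to 0.019 with 1 library left out, above 0 without actl6a replicate 1 or 2. Ratios near 0 also changed sign when a library was left out. The ratio difference of dnai1.2 over dnai4 ran from −0.29 to 0.011, that of dnali1 over odad1 from −0.050 to 0.064, that of dnali1 over the multiciliated cell markers from −0.016 to 0.040 and that of odad1 over them from −0.063 to 0.065. No filter gave an adjusted p of 0.0560 for odad1. The replicate block left 0.0569 for dnali1 and 0.0806 for odad1. For dnai4, the ratio differences to dnal1, dnali1, odad1 and odad3 kept an unadjusted exact p under 0.05 in all 18 fits that left out 1 library. Depth limits dnai2a, with 0 to 64 counts per library.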
